A study of Mus musculus with 6 samples.

Results

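The genes described here are the ligands and receptors of the 4 classical axon guidance systems, chosen by symbol: the semaphorins with their plexin and neuropilin receptors, the ephrins with the Eph receptors, the netrins with the Unc5 receptors, and the Slits with the Robo receptors. Of 55401 genes in the deposited table, 68 matched these family names, 35 of them ligands and 33 receptors. Expression did not enter the choice. All 68 are annotated as protein coding.

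These proteins steer growing axons by attraction or repulsion at the growth cone, and many also act outside the nervous system in cell sorting, epithelial contacts and vessel growth. Semaphorins signal through plexins, and most secreted class 3 semaphorins need a neuropilin as the binding partner. Ephrins are tethered to the membrane, so their Eph receptor tyrosine kinases respond to cell contact. Netrins act through Dcc, neogenin and the Unc5 receptors, and Slits act through Robo receptors, mostly as repellents.

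Mouse messenger RNA was sequenced from 6 libraries in 2 groups of 3. The group titled SSCs holds cultured spermatogonial stem cells from the testis of 6-day-old males. They were kept on inactivated STO feeder fibroblasts in medium with 10% serum, LIF (10 ng/mL), EGF (20 ng/mL), bFGF (10 ng/mL) and GDNF (20 ng/mL). The group titled iNSCs holds male neural stem cell-like cells after 6 days of transdifferentiation. For these, the protocol removed adherent cells by differential plating and took stem cells off the feeders onto laminin, added 1 µM retinoic acid to the stem cell medium for 24 h, and then changed to N2 and B27 medium with 1% serum, bFGF at 20 ng/mL and the TGF-beta receptor inhibitor SB431542 at 10 µM. No genetic change is named in either group, and no label says whether the 3 libraries of a group are separate cultures, so p-values measure the spread between libraries, which may be technical. Effects of cell fate, of the medium, of the substrate and of other cells in the dishes cannot be told apart, and in bulk RNA fewer cells of a type and less RNA per cell cannot be told apart either.

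Groups follow the titles, because a separate cell type label names the opposite group in all 6 samples. Total counts were 18058551 to 20156067 per library, at which 3 counts equal 0.149 to 0.166 CPM. All 8 germ cell markers fell in the libraries titled iNSCs, against 27.6% of all genes tested. Their summed level there was 17.5 to 23.8 FPKM (fragments scaled to exon length and library total) against 1076 to 1157 in SSCs. Neural stem cell markers were mixed in iNSCs. Nes, Prom1, Sox9 and Vim rose and 5 of the 9 tested markers fell (44.4% and 55.6%, against 25.7% and 27.6% over all genes tested). Sox1, Nr2e1 and Hes5 had 0 counts in all 3 iNSC libraries. Of 12 simple epithelial markers 9 rose (75%, against 25.7% over all genes tested). The sum of the 12 went from 183 to 307 FPKM in SSCs to 3302 to 3972 FPKM in iNSCs.

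SSCs replicate 3 stood apart. Its 12 fibroblast and feeder markers summed to 110 FPKM, against 634 and 604 in SSCs replicates 1 and 2 and 344 to 405 in iNSCs, and its 5 smooth muscle and myoid markers to 23.6 FPKM, against 524 and 449, and 252 to 300 in iNSCs. Markers of undifferentiated spermatogonia were highest in it, at 527 FPKM against 286 and 366. SSCs replicate 1 was highest in summed Sertoli cell markers, at 354 FPKM against 62.6 and 118, while iNSCs were at 742 to 927. A single gene, Clu, supplied most of this sum in every library, with 280 FPKM in SSCs replicate 1 and 547 to 750 FPKM in iNSCs. The sum therefore mainly follows Clu and does not measure Sertoli cell content. In the fibroblast list 5 of 12 genes rose and 2 fell (41.7% and 16.7%, against 25.7% and 27.6% over all genes tested). The 5 smooth muscle genes missed the thresholds, and all 8 tested Sertoli genes rose. Sox9 is in both the Sertoli list and the neural stem cell list and was counted as a riser in each. The Sertoli markers Amh and Fshr were below the filter on low counts. Amh had 54 counts in SSCs and 12 in iNSCs, and Fshr 0 and 4. Without SSCs replicate 3, 5 fibroblast genes rose and 6 fell. Values with and without SSCs replicate 3 are given below for each guidance gene whose call it changed, and for some others. Differences not given without it moved too, such as Sema3f (log2 2.42 with it, 2.89 without) and Robo2 (2.57 and 2.18). The part of these other cells in the results was not tested.

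Genes were called with edgeR's quasi-likelihood test at a Benjamini-Hochberg adjusted p below 0.05 and an absolute log2 difference, iNSCs minus SSCs, of at least 1. "Rose" and "fell" mean called higher and called lower in iNSCs. Of the 68 genes, 64 passed the filter on low counts and were tested. Among these 31 rose (48.4%) and 15 fell (23.4%), and 18 were not called. Without SSCs replicate 3, 31 rose and 14 fell. Over all 17387 genes tested, 25.7% rose and 27.6% fell, or 53.3% in either direction, so the share of fallers is near the background and that of risers lies above it. The median log2 difference was 1.00 over the 64 genes and -0.05 over all genes tested. FPKM follow library totals, whereas the log2 differences use TMM scaling, and with library totals the median over all genes moved by -0.25. Ligands rose in 19 of 34 tested genes and fell in 8, and receptors rose in 12 of 30 and fell in 7. At a mean of at least 1 FPKM, 39 of the 68 genes were present in SSCs, 47 in iNSCs and 32 in both.

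**Figure D1:**
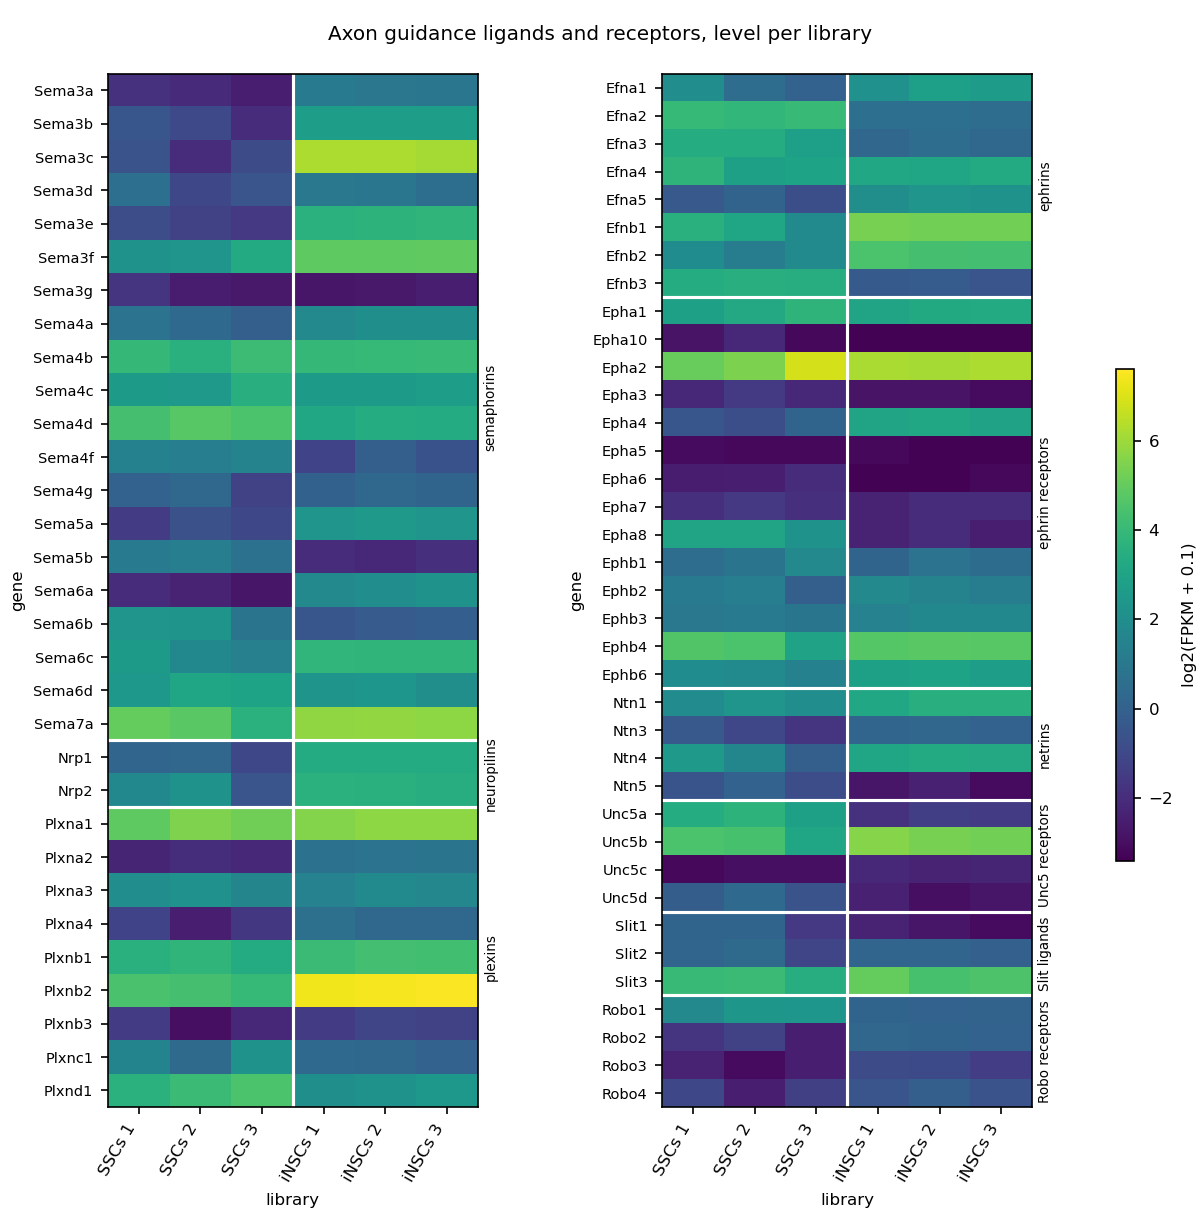
Level of all 68 genes in each library as log2(FPKM + 0.1), with genes grouped by family and a white vertical line between SSCs and iNSCs. Values vary more among the SSC libraries than among the iNSC libraries in many rows, such as Nrp2 and Epha2. Sema3c and Plxnb2 turn bright in iNSCs, and Efnb3, Epha8 and Unc5a turn dark.

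The summed level of the 68 genes was 412, 430 and 430 FPKM in SSCs and 826, 834 and 835 FPKM in iNSCs, a ratio of 1.96. All iNSC libraries lay above all SSC libraries, and the exact two-sided permutation p was 0.1, the smallest that 3 against 3 libraries allow. Plexins and semaphorins made up most of the gain. Plexins went from 92.2 ± 9.85 to 255 ± 13.5 FPKM (SD, n = 3 in each group) and semaphorins from 100.1 ± 6.80 to 247 ± 3.72 FPKM. The shares of members moved in some families and held in others. Efnb3 went from 19.0% ± 3.45 to 0.851% ± 0.0940 of the ephrin sum. Epha2 held 54.4% ± 20.1 and 55.7% ± 2.04 of the Eph receptor sum, and Ntn1 52.8% ± 18.7 and 50.4% ± 1.38 of the netrin sum. The following paragraphs give the members by system.

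**Figure D2:**
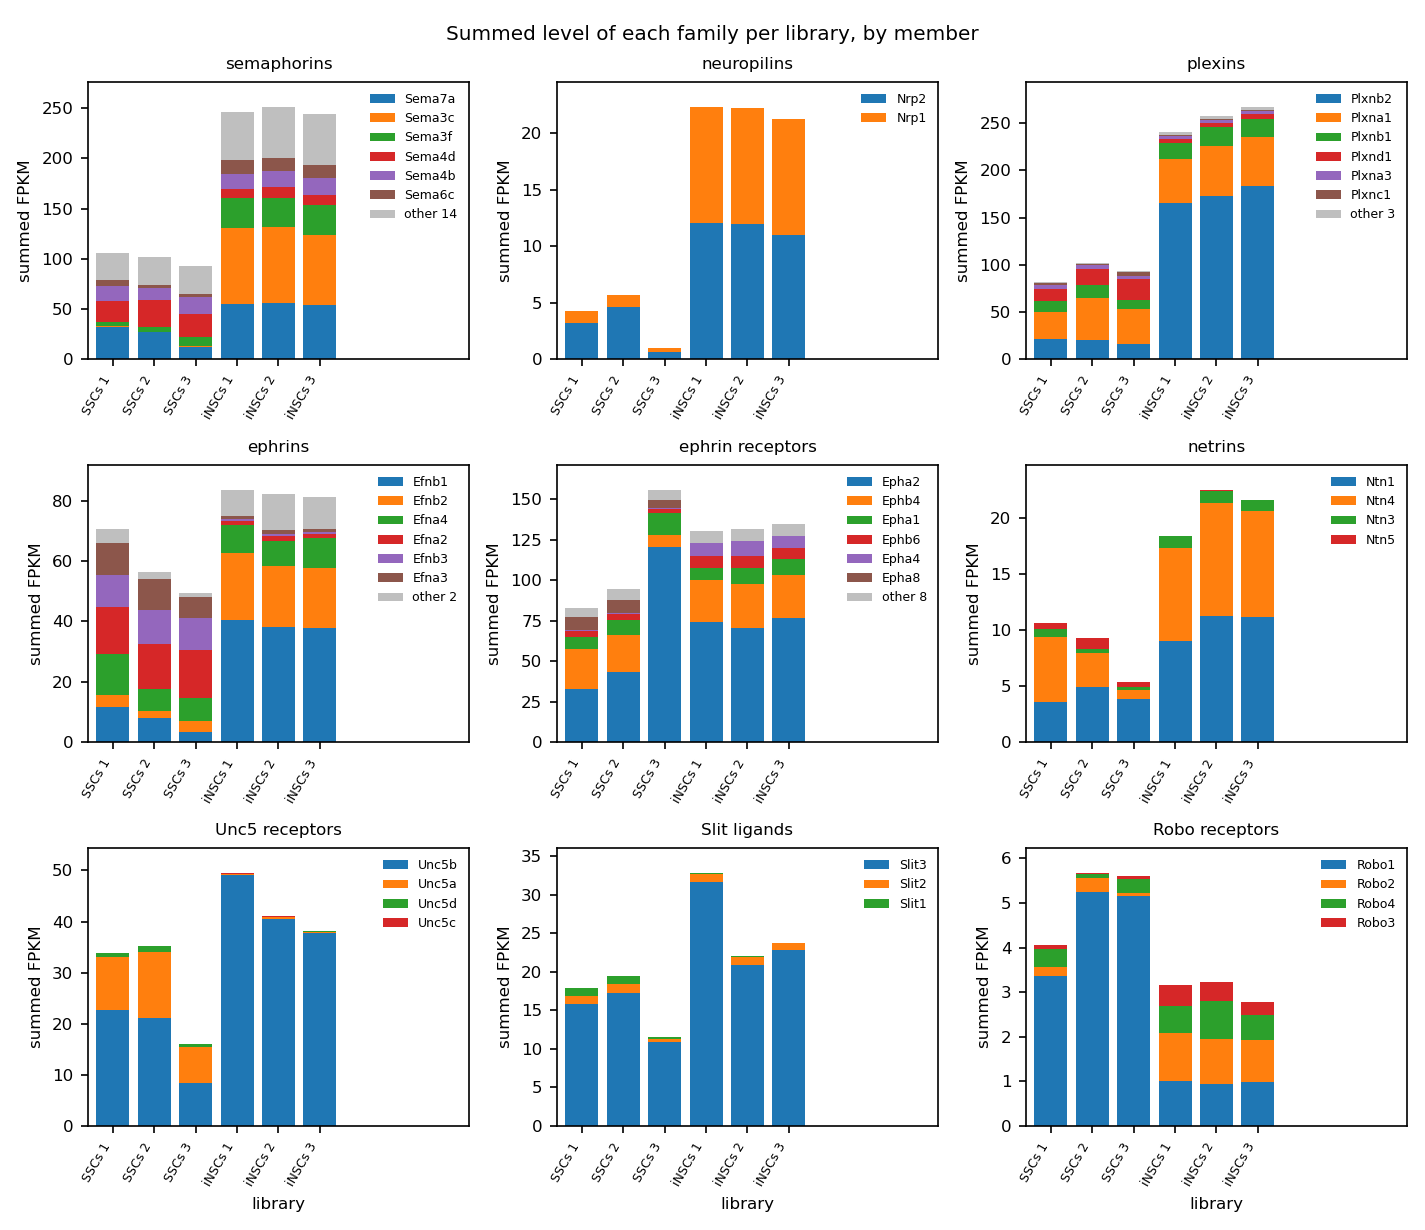
Summed FPKM of each family in each library, stacked by member, with the 6 highest members in colour and the rest in grey. In the ephrins, Efna2, Efna3 and Efnb3 fill SSC bars and Efnb1 and Efnb2 fill iNSC bars, while Unc5b holds nearly the whole Unc5 bar in iNSCs.

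Class 3 semaphorins are secreted, and their 6 tested genes all rose in iNSCs, against 25.7% of all genes tested. Their summed level went from 8.12, 6.40 and 11.5 FPKM in SSCs to 128, 128 and 124 FPKM in iNSCs, 14.6 times higher. Sema3c, a ligand of neuropilin complexes (ENSMUSG00000028780, chromosome 5, 17574281 to 17730268, plus strand, GRCm38), was at 0.56, 0.15 and 0.44 FPKM in SSCs and at 76.2, 75.9 and 69.5 FPKM in iNSCs. It was barely detected in each SSC library and held 58.3% ± 1.76 of the class 3 total in iNSCs. Its log2 difference of 7.84 (SE 0.44, adjusted p = 7.4e-06) was the largest of the 64.

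Sema3e, which can bind plexin D1 without a neuropilin, had 0.47, 0.32 and 0.24 FPKM in SSCs and 12.3, 12.9 and 13.8 FPKM in iNSCs (log2 5.52, SE 0.23, adjusted p = 2.6e-06). Sema3b was at 0.62, 0.41 and 0.15 FPKM against 6.59, 6.47 and 6.63 FPKM (log2 4.34, SE 0.41). For both, no SSC library came near an iNSC library. Sema3a, the classical growth cone collapsing factor, went from 0.18, 0.14 and 0.08 to 2.05, 1.87 and 1.77 FPKM (log2 4.09). Sema3f, a ligand of neuropilin 2, was the class 3 semaphorin with the highest level in SSCs, at 4.67, 4.91 and 9.89 FPKM, and rose to 29.3, 29.1 and 30.4 FPKM (log2 2.42). Its share of the class total went from 73.5% ± 14.7 to 23.4% ± 1.06.

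Sema3d had the smallest rise of the class. Its values of 1.42, 0.4 and 0.6 FPKM in SSCs overlapped those in iNSCs (1.93, 1.81 and 1.40 FPKM). The call (log2 1.35, adjusted p = 0.0211) was lost without iNSCs replicate 1 (adjusted p = 0.0587) or 2 (adjusted p = 0.0528) and when scaled to library totals instead of by TMM (adjusted p = 0.0602), and without SSCs replicate 1 the difference was 2.00. Sema3g, with 29 counts in SSCs and 16 in iNSCs, did not pass the filter on low counts.

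The membrane-bound semaphorins moved in both directions. In class 4, Sema4d, a ligand of plexin B1, was at 20.5, 26.6 and 22.4 FPKM in SSCs and 8.86, 10.6 and 10.2 FPKM in iNSCs. The groups did not overlap, yet the log2 difference of -0.97 (adjusted p = 5.7e-04) stood just short of the size threshold. It passed when scaled to library totals (log2 -1.23) and without SSCs replicate 1 (log2 -1.07). Sema4a rose (1.23 ± 0.386 to 3.86 ± 0.465 FPKM) and Sema4f fell (2.60 ± 0.2 to 0.58 ± 0.256 FPKM, log2 -1.90). Sema4b, Sema4c and Sema4g were not called, among them Sema4b at 14.9, 11.8 and 17.4 FPKM against 15.1, 15.8 and 16.2 FPKM.

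Class 5 exchanged its members. Sema5a rose from 0.26, 0.53 and 0.4 FPKM to 5, 5.59 and 4.98 FPKM (log2 3.96, SE 0.26, adjusted p = 1.5e-05), while Sema5b fell from 2.11, 2.35 and 1.54 FPKM to 0.15, 0.12 and 0.17 FPKM (log2 -3.52, SE 0.26, adjusted p = 2.4e-05). Sema5b supplied 83.3% ± 5.05 of the class level in SSCs, and Sema5a 97.2% ± 0.612 in iNSCs. In class 6, whose members bind class A plexins, Sema6a went from 0.15, 0.1 and 0.05 to 3.32, 3.92 and 4.59 FPKM (log2 5.54, SE 0.34). Sema6c rose from 6, 3.26 and 2.55 to 14.3, 13.7 and 13.7 FPKM (log2 2.09), and Sema6b fell from 4.98, 4.73 and 1.66 to 0.62, 0.75 and 0.83 FPKM (log2 -2.10). Sema6d was not called (7.26 ± 1.59 and 4.62 ± 0.548 FPKM).

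Sema7a, the semaphorin with a lipid anchor and a ligand of plexin C1 and of integrins, was the highest semaphorin of SSCs replicates 1 and 2. It had 32.2, 27.2 and 12.2 FPKM in SSCs and 54.7, 55.5 and 53.8 FPKM in iNSCs. The lowest value lay in SSCs replicate 3, the library with few fibroblast transcripts. The log2 difference was 1.47 (SE 0.3, adjusted p = 0.00296) with that library and 1.15 (adjusted p = 2.5e-05) without it.

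Neuropilins, the co-receptors of class 3 semaphorins and of VEGF, both rose. Nrp1 (ENSMUSG00000025810, chromosome 8, 128358604 to 128503363, plus strand) was at 1.04, 1.08 and 0.39 FPKM in SSCs and 10.27, 10.19 and 10.33 FPKM in iNSCs. All 3 SSC values were low, the lowest in replicate 3, and the iNSC values hardly varied. Its log2 difference was 3.88 (SE 0.34, adjusted p = 5.0e-05). Nrp2 went from 3.19, 4.59 and 0.6 FPKM to 12.06, 12 and 10.95 FPKM (log2 2.33, SE 0.6, adjusted p = 0.00884), and without SSCs replicate 3 the difference was 1.85 (adjusted p = 2.6e-05).

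Plexin B2, a receptor of class 4 semaphorins, had the highest level of all 68 genes in iNSCs, though not in SSCs. Plxnb2 (ENSMUSG00000036606, chromosome 15, 89155549 to 89180788, minus strand) was at 21.5, 20.1 and 15.8 FPKM in SSCs and at 166, 173 and 184 FPKM in iNSCs. The groups lay far apart, with a log2 difference of 3.45 (SE 0.14, adjusted p = 2.6e-06). Its share of all plexin FPKM went from 20.98% ± 4.77 to 68.2% ± 0.926. Plxna1, a partner of neuropilins, led the plexins in SSCs with 28.9, 44.5 and 37.2 FPKM and was at 46.7, 52.8 and 52.4 FPKM in iNSCs, a log2 difference of 0.71 (adjusted p = 0.00903) under the size threshold. Plxnb1 stood likewise under it (11.7, 13.95 and 10.2 FPKM against 16.95, 19.6 and 18.9 FPKM, log2 0.88, adjusted p = 7.0e-04) and was called without SSCs replicate 2 (log2 1.01).

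Plxna2 and Plxna4, receptors of class 6 and of class 3 semaphorins, rose from low levels. Plxna2 was at 0.11, 0.16 and 0.12 FPKM in SSCs and 1.55, 1.62 and 1.67 FPKM in iNSCs (log2 3.88, SE 0.21), and Plxna4 at 0.34, 0.08 and 0.23 FPKM against 1.49, 1.15 and 1.16 FPKM (log2 2.82, SE 0.45). Even after the rise, both stayed far below Plxna1. Plxnd1, a receptor of Sema3e, fell from 12.4, 17.05 and 22 FPKM to 4.11, 4.62 and 5.45 FPKM (log2 -1.62, SE 0.25, adjusted p = 6.9e-04), so this receptor and its ligand moved in opposite directions.

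Plxnc1, a receptor of Sema7a, was called lower with 2.88, 1.22 and 4.64 FPKM against 1.17, 1.1 and 0.94 FPKM (log2 -1.20, adjusted p = 0.0404). Without SSCs replicate 3, its highest library, the difference was -0.66 (adjusted p = 0.0923). The call was also lost, with a difference of similar size, without SSCs replicate 1 (log2 -1.24, adjusted p = 0.0619) and without iNSCs replicate 1 (log2 -1.23, adjusted p = 0.0903), 2 (log2 -1.18, adjusted p = 0.102) or 3 (log2 -1.09, adjusted p = 0.123). Plxna3 (log2 -0.03, adjusted p = 0.903) and Plxnb3 (log2 1.44, adjusted p = 0.0682) were not called, and Plxnb3 passed without SSCs replicate 1 (log2 2.27).

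**Figure D3:**
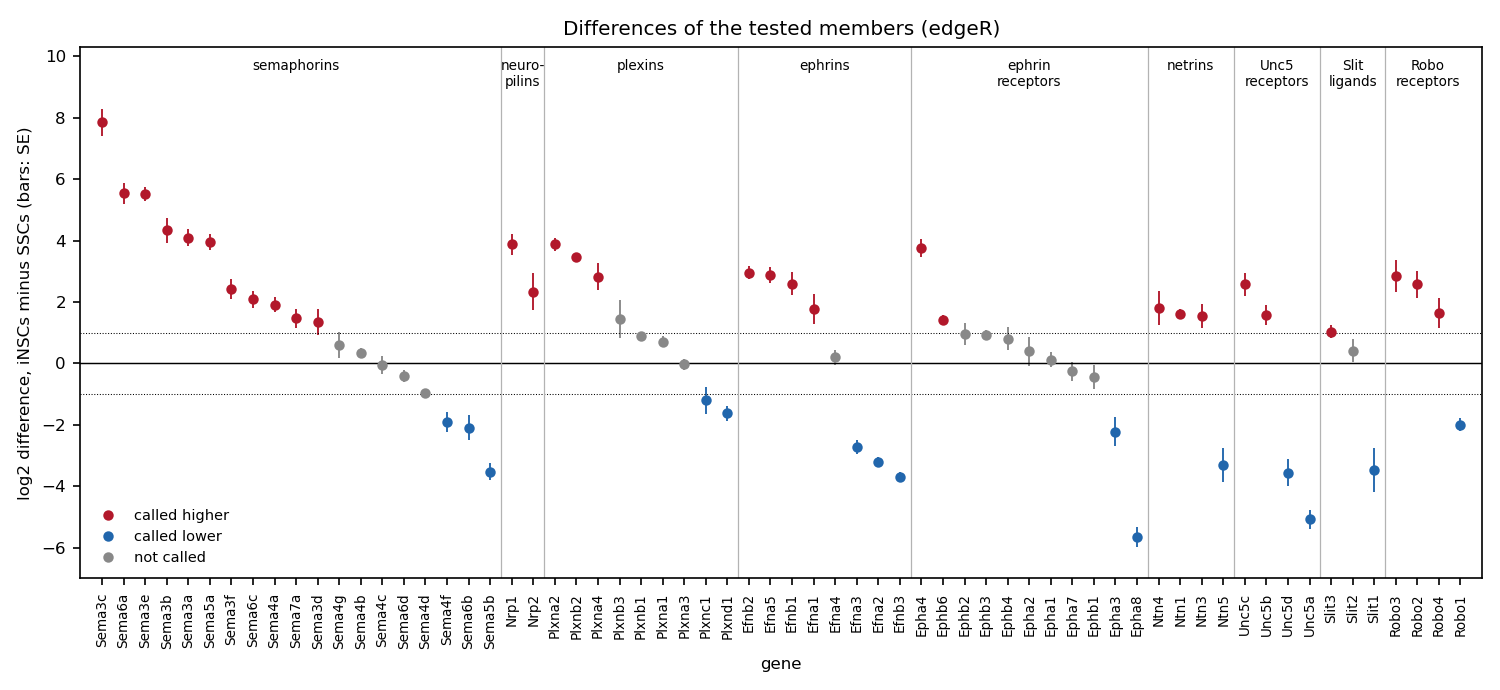
Log2 difference, iNSCs minus SSCs, of each of the 64 tested genes by family, with bars for the standard error and dotted lines at the size threshold of 1. All 6 class 3 semaphorins and both neuropilins lie above it, whereas ephrins, Unc5 receptors and Slits have members on both sides.

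Ephrin-B ligands are transmembrane proteins, and of the 3 genes 2 rose and 1 fell (66.7% and 33.3%, against 25.7% and 27.6% over all genes tested). Efnb3 was at 10.7, 11.3 and 10.8 FPKM in SSCs and 0.72, 0.77 and 0.61 FPKM in iNSCs. It was steady in each group and fell by 3.71 on the log2 scale (SE 0.16, adjusted p = 3.4e-06). Efnb1 rose from 11.8, 8.2 and 3.44 FPKM to 40.6, 38.1 and 37.9 FPKM (log2 2.59, SE 0.37), or by 2.23 without SSCs replicate 3. Efnb2, the ephrin of arteries, rose from 3.81, 2.22 and 3.48 FPKM to 22.1, 20.2 and 19.7 FPKM (log2 2.96, SE 0.2, adjusted p = 1.7e-05). Efnb3 held 51.2% ± 10.2 of the ephrin-B level in SSCs and 1.16% ± 0.13 in iNSCs, where Efnb1 held 64.6% ± 0.515. The ephrin-B sum went from 21.9 ± 4.28 to 60.3 ± 2.76 FPKM.

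Ephrin-A ligands, which sit on a lipid anchor, went the other way in sum, from 36.9 ± 6.49 to 21.99 ± 1.65 FPKM. Efna2 fell from 15.6, 14.8 and 15.8 FPKM to 1.43, 1.44 and 1.33 FPKM (log2 -3.21, SE 0.15, adjusted p = 3.8e-06), and Efna3 from 10.5, 10.4 and 6.83 FPKM to 1.07, 1.35 and 1.1 FPKM (log2 -2.71, SE 0.22). Both were clearly separated between the groups. Efna5, a repellent of retinal axons, rose from 0.7, 0.98 and 0.5 FPKM to 4.06, 4.97 and 4.53 FPKM (log2 2.89, SE 0.26). Efna1 rose from 3.84, 1.33 and 0.93 FPKM to 4.43, 6.83 and 6.10 FPKM (log2 1.78, SE 0.49, adjusted p = 0.0119), or by 2.58 without SSCs replicate 1, its highest SSC library. Efna4 was not called, at 13.6, 7.13 and 7.72 FPKM against 9.10, 8.39 and 9.84 FPKM, and was the leading ephrin-A in iNSCs with a share of 41.6% ± 4.55.

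Of the 14 Eph receptor genes, 11 were tested, and 2 rose (18.2%), 2 fell (18.2%) and 7 were not called. Both shares lay below those over all genes tested (25.7% and 27.6%). Epha2, an epithelial receptor of ephrin-A1, had the highest level of them. It was at 33.0, 43.6 and 120 FPKM in SSCs and 74.2, 70.3 and 76.5 FPKM in iNSCs, so the groups overlapped and SSCs replicate 3 exceeded every iNSC library. The log2 difference was 0.39 (adjusted p = 0.468) with that library and 1.21 (adjusted p = 1.0e-04) without it. Ephb4, the receptor of ephrin-B2 on veins, showed the reverse pattern among the SSC libraries, with 24.7, 22.6 and 7.56 FPKM against 25.6, 27.5 and 26.5 FPKM. It was not called (log2 0.81, adjusted p = 0.0803), and passed without SSCs replicate 1 (log2 1.06, adjusted p = 0.0464) but not without SSCs replicate 3 (log2 0.44).

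Epha4 and Epha8 carried the largest Eph differences. Epha4, which binds ephrins of both classes (ENSMUSG00000026235, chromosome 1, 77367185 to 77515088, minus strand), was at 0.62, 0.5 and 1.01 FPKM in SSCs and 8.06, 8.79 and 7.6 FPKM in iNSCs. The rise held in each library, with a log2 difference of 3.76 (SE 0.28, adjusted p = 2.4e-05). Epha8 (ENSMUSG00000028661, chromosome 4, 136929419 to 136956816, minus strand) fell from 7.93, 8.13 and 4.48 FPKM to 0.1, 0.15 and 0.08 FPKM (log2 -5.65, SE 0.34, adjusted p = 9.6e-06), the largest fall among the 64. Ephb6, an Eph protein without kinase activity, rose from 3.24 ± 0.584 to 7.20 ± 0.481 FPKM (log2 1.41). Epha3 fell at a low level, from 0.167 ± 0.0723 to 0.0333 ± 0.0115 FPKM (log2 -2.22), and with a pseudocount of 0.1 FPKM under limma its difference of -0.97 was under the size threshold.

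Epha1, Epha7, Ephb1, Ephb2 and Ephb3 were not called. Epha1 was at 7.22, 9.37 and 13.3 FPKM against 7.97, 9.49 and 9.99 FPKM, with overlapping groups, and shares sequence with Zyx on the opposite strand. Ephb2 (log2 0.96, adjusted p = 0.0364) and Ephb3 (log2 0.92, adjusted p = 0.00104) missed only the size threshold. Ephb2 was called without SSCs replicate 1 (log2 1.06), SSCs replicate 2 (log2 1.25) or iNSCs replicate 3 (log2 1.11), and Ephb3 without iNSCs replicate 1 (log2 1.04). Below the filter on low counts were Epha10 with 23 counts in SSCs and 0 in iNSCs, Epha5 with 12 and 2, and Epha6 with 30 and 1.

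**Figure D4:**
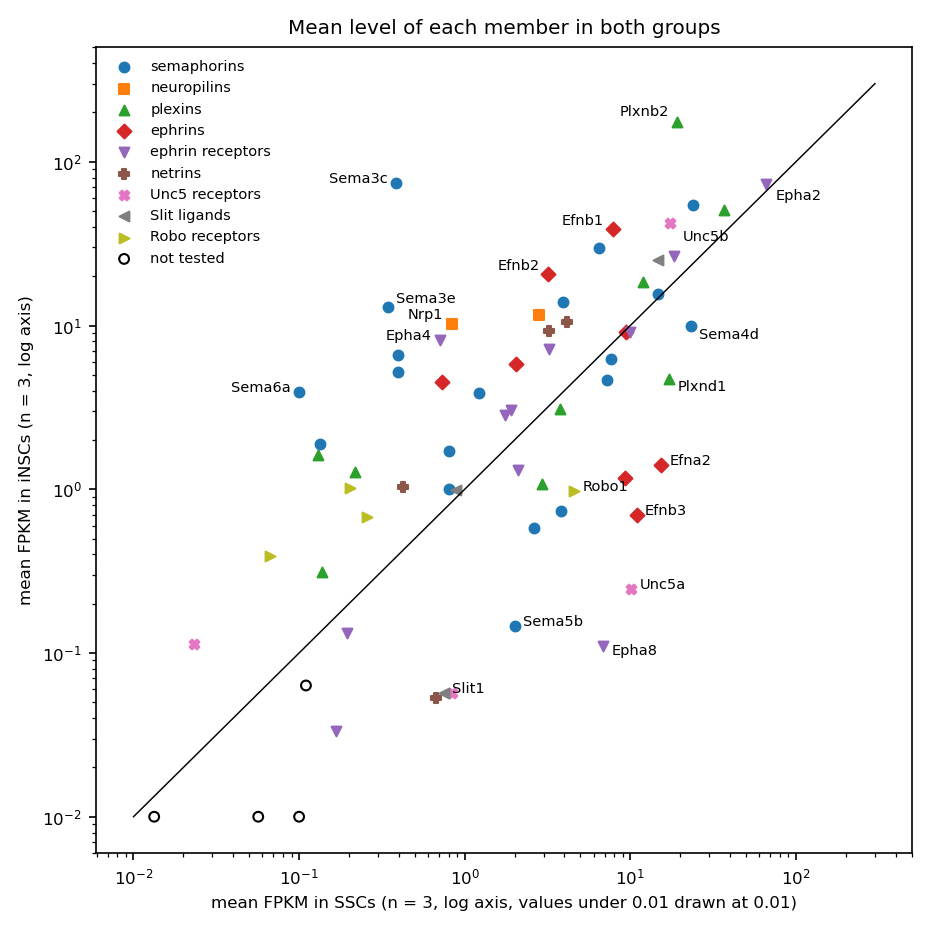
Mean FPKM in SSCs against mean FPKM in iNSCs for the 68 genes on log axes, with equal levels on the line and open circles for the 4 genes not tested. Sema3c, at 0.383 and 73.8 FPKM, lies farthest above the line, and Epha8, at 6.85 and 0.11 FPKM, far below it.

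Among the netrins, Ntn1, Ntn3 and Ntn4 rose and Ntn5 fell (75% and 25%, against 25.7% and 27.6% over all genes tested). Ntn1, the netrin of the floor plate, went from 3.60, 4.95 and 3.84 FPKM to 9.04, 11.3 and 11.2 FPKM (log2 1.60, SE 0.17, adjusted p = 1.2e-04). Ntn4, a netrin of basement membranes, went from 5.77, 3 and 0.86 FPKM to 8.25, 10.0 and 9.42 FPKM (log2 1.80, SE 0.54, adjusted p = 0.0178). The SSC libraries differed widely for Ntn4, which had a difference of 2.498 without SSCs replicate 1 and lost its call without SSCs replicate 2 (adjusted p = 0.0626). Without SSCs replicate 3, its lowest library, the Ntn4 difference was 1.34 (adjusted p = 0.00152). Ntn3 rose from 0.69, 0.38 and 0.21 to 1.05, 1.08 and 0.95 FPKM (log2 1.54), and Ntn5 fell from 0.58, 0.95 and 0.48 to 0.05, 0.09 and 0.02 FPKM (log2 -3.31). Both are uncertain. Ntn3 overlaps the protein-coding gene Tbc1d24 by 1715 bases on the same strand, and Ntn5 overlaps Sec1 on the opposite strand, with the strand setting of the counting not known.

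The 4 Unc5 receptors, which mediate repulsion by netrin, split evenly (50% rose and 50% fell, against 25.7% and 27.6% over all genes tested). Unc5a (ENSMUSG00000025876, chromosome 13, 54949411 to 55006018, plus strand) was at 10.5, 12.9 and 7.06 FPKM in SSCs and 0.18, 0.29 and 0.27 FPKM in iNSCs, and fell by 5.08 on the log2 scale (SE 0.3, adjusted p = 9.7e-06). Unc5d fell from 0.79, 1.18 and 0.56 FPKM to 0.09, 0.03 and 0.05 FPKM (log2 -3.55, SE 0.45). Unc5b, the Unc5 of blood vessels, had 22.6, 21.02 and 8.38 FPKM in SSCs and 49.1, 40.6 and 37.8 FPKM in iNSCs. It was again lowest in SSCs replicate 3, and its log2 difference was 1.56 (SE 0.33, adjusted p = 0.00346), or 1.23 (adjusted p = 6.7e-05) without that library. Its share of Unc5 FPKM went from 59.6% ± 7.15 to 99.0% ± 0.162, while Unc5c, though called higher (log2 2.57), stayed at 0.113 ± 0.0153 FPKM in iNSCs. Dcc, the attractive netrin receptor, had 8 counts in all SSC libraries and 0 in iNSCs, and its relative Neo1 was at 11.2, 13.5 and 13.1 FPKM against 21.9, 21.6 and 20.0 FPKM, a log2 difference of 0.998 just under the threshold, and of 1.04 without SSCs replicate 3.

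Slit3 held 90.6% ± 3.59 of the Slit level in SSCs and 95.9% ± 0.759 in iNSCs. It was at 15.8, 17.2 and 10.9 FPKM and at 31.7, 20.9 and 22.8 FPKM, without overlap (log2 1.04, SE 0.21, adjusted p = 0.00271). The difference was 0.87 without SSCs replicate 3, 0.88 without iNSCs replicate 1 and 0.78 when scaled to library totals, each under the size threshold. Slit1, a Slit of the nervous system, fell from 0.99, 1.02 and 0.24 FPKM to 0.1, 0.05 and 0.02 FPKM (log2 -3.47, SE 0.72, adjusted p = 0.00321), or by 4.11 without iNSCs replicate 1. Slit2 was not called (0.887 ± 0.457 and 0.983 ± 0.0808 FPKM, adjusted p = 0.345).

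Robo receptors were low, with a sum of 4.06, 5.67 and 5.61 FPKM in SSCs and 3.15, 3.23 and 2.77 FPKM in iNSCs. Robo1 fell from 3.37, 5.24 and 5.15 FPKM to 1, 0.93 and 0.98 FPKM (log2 -1.997, SE 0.21, adjusted p = 1.1e-04). Robo2 rose from 0.2, 0.33 and 0.08 FPKM to 1.08, 1.02 and 0.94 FPKM (log2 2.57, SE 0.45), to within its own SD of Robo1 in iNSCs. Robo3, the Robo of commissural axons, rose from 0.1, 0.02 and 0.08 FPKM to 0.46, 0.43 and 0.28 FPKM (log2 2.84, SE 0.53). Robo4, an endothelial Robo, rose from 0.39, 0.08 and 0.3 FPKM to 0.61, 0.85 and 0.57 FPKM (log2 1.64, adjusted p = 0.0182), a call lost without iNSCs replicate 2 (adjusted p = 0.0601). In the same libraries 5 of 6 tested endothelial markers fell (83.3%, against 27.6% over all genes tested) and the other was not called. Emcn, a marker below the filter on low counts, went the other way, with 13 counts in SSCs and 39 in iNSCs. The 7 markers summed to 4.87 to 5.58 FPKM in SSCs and 0.93 to 1.44 FPKM in iNSCs. The part of endothelial cells in the Robo4 level was not tested. Robo1 supplied 89.1% ± 5.26 of the Robo level in SSCs and 32.0% ± 3.30 in iNSCs.

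Start regions are shown for the genes with the largest rises (Sema3e, Epha4) and falls (Epha8, Unc5a) among called genes with 1 window that lies wholly upstream of the deposited gene. Sema6a was not considered. They are the 250 bases before the start in RefSeq on GRCm38.p6, written in the direction of transcription. Of the 68 genes, 59 matched the RefSeq table. Sema3e lies on the plus strand at chr5:14025026-14025275, Epha4 on the minus strand at chr1:77515089-77515338, Epha8 on the minus strand at chr4:136956817-136957066 and Unc5a on the plus strand at chr13:54949161-54949410. Capitals mark the GC box GGGCGG on either strand (read as CCGCCC on the other), a motif of Sp1-type factors.
Sema3e: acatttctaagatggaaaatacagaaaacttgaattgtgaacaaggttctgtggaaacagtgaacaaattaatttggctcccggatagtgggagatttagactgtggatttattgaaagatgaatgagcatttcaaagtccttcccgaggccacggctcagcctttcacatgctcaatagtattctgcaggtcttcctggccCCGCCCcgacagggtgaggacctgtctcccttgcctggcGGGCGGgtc
Epha4: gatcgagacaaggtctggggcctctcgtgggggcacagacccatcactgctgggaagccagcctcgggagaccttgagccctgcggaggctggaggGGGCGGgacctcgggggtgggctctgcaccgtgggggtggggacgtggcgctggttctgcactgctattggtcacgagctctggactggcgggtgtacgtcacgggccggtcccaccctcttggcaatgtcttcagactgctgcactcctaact
Epha8: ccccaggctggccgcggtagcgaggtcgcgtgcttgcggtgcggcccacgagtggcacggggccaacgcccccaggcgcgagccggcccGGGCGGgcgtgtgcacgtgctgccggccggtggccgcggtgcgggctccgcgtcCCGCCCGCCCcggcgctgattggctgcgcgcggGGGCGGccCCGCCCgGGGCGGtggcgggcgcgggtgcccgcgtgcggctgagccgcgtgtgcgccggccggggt
Unc5a: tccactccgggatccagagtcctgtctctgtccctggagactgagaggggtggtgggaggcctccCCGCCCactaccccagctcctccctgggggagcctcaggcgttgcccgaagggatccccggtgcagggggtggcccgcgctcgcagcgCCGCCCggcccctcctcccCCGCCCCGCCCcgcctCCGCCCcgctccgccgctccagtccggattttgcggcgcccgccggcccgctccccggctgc

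The GC box was found 2 times in Sema3e, 1 time in Epha4, 6 times in Epha8 and 5 times in Unc5a, counting matches that overlap each other. It occurs in 32.7% of 32841 windows of this length. The windows of the falling pair held 46 (Epha8) and 25 (Unc5a) CpG dinucleotides, and those of the rising pair 7 (Sema3e) and 14 (Epha4). That contrast was not seen over all called members with a window, these 4 included. The median was 16.8 CpGs over 26 risers and 17.5 over 12 fallers, and 12 over 17 tested members not called. Over all windows it was 6, taken over single windows, whereas members with several windows entered by their mean. Neither the retinoid receptor motif AGGTCA (14.0% of all windows, either strand) nor the AP-1 core TGANTCA (6.75%) was found in these 4 windows. An E-box, CANNTG, was found once in Sema3e and once in Epha8 and is present in 66.2% of all windows.

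Other genes of the same pathways, from a list of 78 co-receptors, adhesion partners and signal transducers, were read in the same test. Of 76 tested, 30 rose and 13 fell (39.5% and 17.1%, against 25.7% and 27.6% over all genes tested), with a median log2 difference of 0.69 against -0.05. Among co-receptors and other guidance proteins 8 of 16 rose and 3 fell (50% and 18.8%). The adhesion molecules Cntn2 (0.78, 0.43 and 0.15 against 16.7, 14.2 and 17.0 FPKM, log2 5.41, and 6.02 without SSCs replicate 1) and L1cam (0.86, 1.44 and 0.57 against 11.5, 13.0 and 12.8 FPKM, log2 3.96), partners of neuropilin signalling and of axon bundles, led the risers. Met, a receptor kinase that associates with B plexins, rose from 3.20 ± 0.471 to 24.6 ± 0.782 FPKM (log2 3.19). Lrig2, a regulator of neogenin cleavage, fell (log2 -1.09, and -0.97 without SSCs replicate 3, under the threshold).

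GTPase regulators rose in 9 of 21 genes and fell in 2 (42.9% and 9.52%, against 25.7% and 27.6% over all genes tested). Ngef (ephexin), an exchange factor downstream of EphA receptors, rose from 0.357 ± 0.0961 to 7.48 ± 0.955 FPKM (log2 4.63, SE 0.23). Rnd1, a GTPase that binds plexins, rose from 4.79 ± 0.515 to 37.4 ± 1.76 FPKM (log2 3.22), and Farp1, a FERM-domain exchange factor, from 3.75 ± 0.632 to 26.3 ± 1.84 FPKM (log2 3.07). The Rac exchange factors Tiam1 (log2 -1.62) and Vav2 (log2 -1.22) fell.

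Kinases and adaptors rose in 6 of 20 genes and fell in 5, shares near those over all genes tested (25.7% and 27.6%). The Rac effector kinase Pak3 (log2 2.79), Src (log2 1.74) and the cytoskeletal kinase Rock2 (log2 1.25) rose, and Rock2 was at 0.996 when scaled to library totals. The Src family kinase Fyn, which acts below plexins and Eph receptors, fell from 30.1, 32.0 and 63.5 FPKM to 9.21, 9.26 and 9.70 FPKM (log2 -1.92), as did Cdk5r1, the activator of Cdk5 (log2 -2.13), and the kinase Abl2 (log2 -1.43).

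Of 16 cytoskeletal effectors 5 rose and 3 fell (31.2% and 18.8%, against 25.7% and 27.6% over all genes tested). Cofilin 1 (Cfl1), which severs actin, rose from 124 ± 31.5 to 395 ± 2.84 FPKM (log2 1.94), Ablim1 by 2.96 and the actin-oxidizing Mical2 by 1.89 on the log2 scale. The collapsin response mediators, which act below semaphorin receptors, moved both ways. Dpysl5 and Crmp1 fell (log2 -3.27 and -3.05), Dpysl3 and Dpysl4 rose (log2 1.74 and 1.46), and Dpysl2 missed only the size threshold (log2 0.998, adjusted p = 9.4e-04). Crmp1 had 1.41, 2.22 and 9.57 FPKM in SSCs, and its difference was -1.72 without SSCs replicate 3. Ablim3 also fell (log2 -1.42). Of the shedding proteases, Adam8 rose from 1, 0.51 and 0.61 FPKM to 61.9, 71.5 and 76.4 FPKM (log2 6.88, SE 0.26, adjusted p = 2.0e-06) and Adam10, which cleaves ephrins, from 16.7 ± 1.68 to 36.8 ± 2.15 FPKM (log2 1.38), while Adam17 was not called.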

How the data were processed

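Polyadenylated RNA of 3 SSC and 3 iNSC libraries was read from a single deposited table of whole-number counts and FPKM per gene. Libraries were made with a stranded kit, per the labels' protocols. HISAT2, DESeq2 and mm9 are named in the submitters' processing notes. For the counting tool and its strand setting, none is given in the sources used here, so reads of overlapping antisense genes may be included. The authors' FPKM were recomputed from the deposited counts, exonic lengths and column totals, and 100% of values in every library matched within 0.0051 FPKM. The coordinates of all 68 genes equal those of GENCODE M21 on GRCm38, not mm9, and are given on GRCm38.

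Raw counts of all genes were tested with edgeR 4.0.16 (R 4.3.3) using TMM scaling, its default filter (minimum count 10, total 15) and the two-sided quasi-likelihood test, adjusted over 17387 genes. Summed FPKM were compared by exact permutation (scipy 1.17.1). The test script was checked on simulated data. Alternatives were DESeq2 1.42.0, limma 3.58.1 on log2(FPKM + 1) and log2(FPKM + 0.1), other scalings and filters, a replicate block and leaving out each library. Per-library values are given for called genes (up to 6 per family and direction) and those of at least 10 FPKM, and for some others. Of the pathway list, up to 3 called genes per sublist and direction of at least 1 FPKM are named, besides Dcc, Neo1, Adam17, Dpysl2, Dpysl3 and Dpysl4. These 6 and the low or uncalled members given by library were chosen after their values were seen. No sequence from chromosome 18 was considered for printing. Genes and lists were chosen with earlier results of these data known.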

Additional observations from a re-analysis of the deposited data

How the results depend on the processing

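Of the 64 tested genes, 42 kept their call under every alternative run that tested them. Among 884 results of a single guidance gene, 0 reversed a called difference. Changes of sign in genes uncalled in both runs were not counted as reversals, and they did occur. Epha1 was at a log2 difference of 0.12 in the main run and -0.12 when scaled to library totals. Ephb1 was at -0.44, and at 0.07 without SSCs replicate 3. DESeq2, and DESeq2 size factors in edgeR, changed 0 calls of these genes. Risers and fallers numbered 29 and 16 when scaled to library totals (which moved the median of all genes by -0.25), 31 and 17 with no filter, 25 and 12 at 1 FPKM or more in 3 libraries, 29 and 14 under limma with a pseudocount of 0.1 and 22 and 11 with a pseudocount of 1, which shrinks differences of low genes. Without single libraries they ranged from 29 to 34 and from 14 to 15. Over all genes, limma with a pseudocount of 1 called 2738 higher, against 4470.

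At 1 FPKM or more in 3 libraries, 0 Robo and 0 Slit genes rose and 0 Slit and 0 netrin genes fell, with 1 Unc5 riser, 1 Unc5 faller and 1 Eph receptor faller. Under limma with a pseudocount of 1 there were 0 Robo and 0 Slit risers, 0 Slit and 0 netrin fallers, 1 Unc5 riser, 1 Unc5 faller, 1 Eph receptor riser, 1 Eph receptor faller and 1 plexin faller, and with 0.1 there were 0 Slit risers, 1 Unc5 riser, 1 Eph receptor faller and 1 plexin faller. Library totals gave 0 Slit risers, and no filter gave 4 Eph receptor fallers. The filter at 1 FPKM left fewer genes to test, but Slit3 was still tested there (log2 0.98). For the other moves the cause was not tested. Leaving out single libraries gave 0 to 1 Slit risers, 2 to 4 Eph receptor risers and 1 to 2 plexin fallers. With FPKM rescaled by TMM factors, the log2 ratio of summed levels was 0.75 for ephrins (0.48 before), 1.72 for plexins (1.47) and 1.56 for semaphorins (1.30).

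With the replicate number as a block, 32 genes rose and 14 fell. Ephb2 passed (log2 1.06), and Plxnc1 (log2 -1.002, adjusted p = 0.0869) did not, leaving 1 plexin faller. Deviations of same-numbered libraries from their group means were weakly correlated (0.0907, 0.0496 and -0.0150). SSCs replicates 1 and 2 were each closest to the iNSC library of the same number, and SSCs replicate 3 to iNSCs replicate 2 (0.0535). Deviations from a mean of 3 libraries depend on each other, so such small values cannot decide on pairing. The numbers were not treated as pairs in the main test. Epha5, Epha6, Epha10 and Sema3g fell below the filter on low counts.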

Other observations

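Some members lie within 250 kb of each other in the genome and had different values. Other genes lying between them were not looked for. Efna1, Efna3 and Efna4 lie in this order on chromosome 3, with 32.8 kb between Efna1 and Efna3 and 10.4 kb between Efna3 and Efna4. Their log2 differences were 1.78, -2.71 and 0.21, that is called higher, called lower and not called. On chromosome 4, Ephb2 (log2 0.96, not called) lies 93.4 kb from Epha8 (log2 -5.65, called lower). Both genes were called higher in 2 other pairs within 250 kb. Sema3b and Sema3f are 72.3 kb apart on chromosome 9 (log2 4.34 and 2.42). Robo3 and Robo4 are 0.553 kb apart on the same chromosome and on opposite strands (log2 2.84 and 1.64). These pairs were picked by position after the values were seen, and no test was made of them.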
